A study of Mus musculus with 5 samples.

Results

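Srcin1, Ppp1r9b and Agap2 encode signalling scaffolds of the dendritic spine, and their mRNAs were among those listed for an anti-HA precipitation from mouse hippocampus that was made to find mRNAs bound by CYFIP1. The 3 genes were taken by name, out of 4727 genes on which at least 1 region was listed. They were selected on the ratio of their HA to IgG reads in these same lists, so their reads are given as a description, without a test. CYFIP1 binds FMRP, the fragile X protein, which sits on mRNAs and holds back their translation, and it is also a subunit of the WAVE complex, which drives branching of actin filaments. Spines, the protrusions that carry most excitatory synapses, are built on actin, and scaffold proteins there hold kinases, phosphatases and GTPases close to the receptors. Srcin1 (p140Cap or SNIP) is a postsynaptic scaffold that restrains Src kinase. Ppp1r9b (spinophilin) binds actin filaments and brings protein phosphatase 1 to spines. Agap2 (PIKE) is a GTPase with an Arf GTPase-activating domain that enhances PI 3-kinase and Akt signalling.

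RNA immunoprecipitation followed by sequencing (RIP-seq) was done on hippocampi of C57BL/6 mice. The libraries were anti-HA from 2 knock-in mice, control IgG from the same 2 knock-in mice, and anti-HA from 1 wild-type mouse. The labels name Cyfip1 as the protein under study and do not describe the knock-in allele further, nor the age or sex of the mice; that the allele puts an HA tag on CYFIP1 is read from the antibody and the stated aim. The 4 deposited lists give regions in which a knock-in HA library was set against IgG of its own mouse or against the wild-type HA library, with the reads of both libraries. A fold here is the ratio of HA to control reads summed over the listed regions of a gene, divided by the median of that ratio over the list's regions with at least 20 reads. This median was 2.89 and 0.947 over IgG in mice 1 and 2, and 1.41 and 1.75 over wild-type HA. Bracketed ranges are 95% counting intervals. They are made from the HA and control read counts and cover counting error alone. The reads carry no molecular identifiers, so copies of one molecule may count as separate reads.

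The lists held 4191 and 1920 regions over IgG in mice 1 and 2, and 5355 and 5362 over wild-type HA, with 64055 to 166760 HA reads in each. Reads outside the regions are not listed, so the depth of the libraries is unknown. The mRNA of Cyfip1 itself reached 31.5-fold (24.7 to 40.6) in mouse 1 and 56.8-fold (47.3 to 68.9) in mouse 2 relative to IgG. Relative to wild-type HA it reached 10.02-fold and 8.497-fold. It was listed as 1 region of 62 kb in mouse 1 and as 26 regions covering 8.2 kb in mouse 2, so the folds of the 2 mice rest on unlike regions. Recovery of CYFIP1 protein was not measured by these reads. The HA libraries were counted as 2 samples because the labels name 2 mice. A chi-square test of their reads over 141 regions with the same coordinates in both, which allows for counting error alone, gave p = 1.12e-09, and p = 0.0234 over 140 regions without Malat1. For the 2 IgG libraries the same chi-square test over 24 regions, with 1167 and 2050 reads in mice 1 and 2, gave p = 1.10e-16. Among markers of hippocampal neurons and astrocytes, the neuronal Prox1 and Neurod6 and the astrocytic Slc1a2 and Slc1a3 had a region in some list. The hippocampal neuron markers Camk2a, Neurod2, Zbtb20, Wfs1 and Snap25 had none, nor had any marker of interneurons, microglia, blood and endothelium or choroid plexus. The labelled tissue could therefore be checked against few of its markers.

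A stretch of 150 coding bases from the region richest in HA reads (mouse 1) on each mRNA shows what kind of sequence lay under the reads. Each was chosen as the stretch with the most matches to TGGA or AGGA and to ACTT or ACTG, short motifs that have been tied to FMRP-bound mRNAs, so the number of matches in it is a product of that choice. The bases come from GENCODE M21 transcripts on GRCm38 (mm10) and are written 5′ to 3′ on the RNA strand, the one strand searched, with the motifs in capitals, where motifs may overlap.
Srcin1, exon 8, chr11:97534992-97535141, minus strand: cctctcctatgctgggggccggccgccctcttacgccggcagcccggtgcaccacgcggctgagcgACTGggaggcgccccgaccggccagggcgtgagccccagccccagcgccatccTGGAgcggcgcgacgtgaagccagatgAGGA
Ppp1r9b, exon 1, chr11:94992636-94992785, plus strand: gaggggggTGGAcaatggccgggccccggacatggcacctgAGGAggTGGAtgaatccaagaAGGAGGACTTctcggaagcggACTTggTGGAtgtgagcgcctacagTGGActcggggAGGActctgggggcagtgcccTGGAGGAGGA
Agap2, exon 1, chr10:127080309-127080458, plus strand: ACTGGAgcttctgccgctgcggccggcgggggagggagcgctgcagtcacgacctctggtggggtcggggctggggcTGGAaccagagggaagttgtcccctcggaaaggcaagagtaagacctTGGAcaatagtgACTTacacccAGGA
The Ppp1r9b stretch held 13 matches, 6 of them AGGA and 5 TGGA. The Agap2 stretch held 6 matches and lay inside a listed region in all 4 lists. The Srcin1 stretch held 3 matches and was 74.7% G and C. For comparison, over 27401 stretches of the same length on the exons of other listed genes (HA over IgG, mouse 1), the median was 3 matches, 55.8% held TGGA, 56.0% AGGA, 45.9% ACTT and 52.1% ACTG. A match describes letters and is not a binding site.

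Srcin1 (ENSMUSG00000038453; GRCm38 chr11:97509340-97576186, minus strand) had the highest fold over IgG of the 3 genes. Its 11 regions in mouse 1, covering 5.805 kb, had 888 HA and 34 IgG reads. Its 7 regions in mouse 2, covering 4.30 kb, had 643 HA and 88 IgG reads. Per kb of region, HA reads were alike in the 2 mice at 153 and 150, whereas IgG reads were 5.86 in mouse 1 and 20.5 in mouse 2. The folds were 9.02 (6.41 to 13.1) in mouse 1 and 7.72 (6.17 to 9.76) in mouse 2, a mean of 8.35-fold (log2 3.06 ± 0.16, SD, n = 2). The intervals of the 2 mice overlapped. Srcin1 ranked 18th of 1097 genes in mouse 1 and 19th of 719 genes in mouse 2, among genes with at least 20 reads.

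Ppp1r9b (ENSMUSG00000038976; chr11:94991035-95006899, plus strand) lay below Srcin1. The 5 regions of mouse 1 had 456 HA and 33 IgG reads and the 4 regions of mouse 2 had 446 HA and 130 IgG reads, in both cases over 2.795 kb. This came to 163 and 160 HA reads per kb, and to 11.8 and 46.5 IgG reads per kb, in mice 1 and 2. The HA libraries thus gave near-equal coverage, and the IgG libraries did not. The fold was 4.77 (3.35 to 7.02) in mouse 1 and 3.62 (2.97 to 4.44) in mouse 2, a mean of 4.16-fold (log2 2.06 ± 0.28, SD, n = 2), with ranks of 33 and 32. The intervals of Ppp1r9b and Srcin1 overlapped in mouse 1 and did not in mouse 2.

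Agap2 (ENSMUSG00000025422; chr10:127075284-127093169, plus strand) had the lowest fold of the 3. The 2 regions of mouse 1 (1.47 kb) carried 180 HA and 25 IgG reads, and the 5 regions of mouse 2 (5.67 kb) carried 506 HA and 210 IgG reads. The regions were fewer and shorter in mouse 1, where coverage was 122 HA and 17.0 IgG reads per kb, against 89.2 HA and 37.0 IgG reads per kb in mouse 2. The folds of 2.49 (1.63 to 3.95) and 2.55 (2.16 to 3.004) were nonetheless close, with a mean of 2.52-fold (log2 1.33 ± 0.02, SD, n = 2). Agap2 ranked 72nd and 47th. The intervals of Agap2 and Ppp1r9b overlapped in both mice.

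The plot of reads per kb puts the 3 genes side by side.

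**Figure D1:**
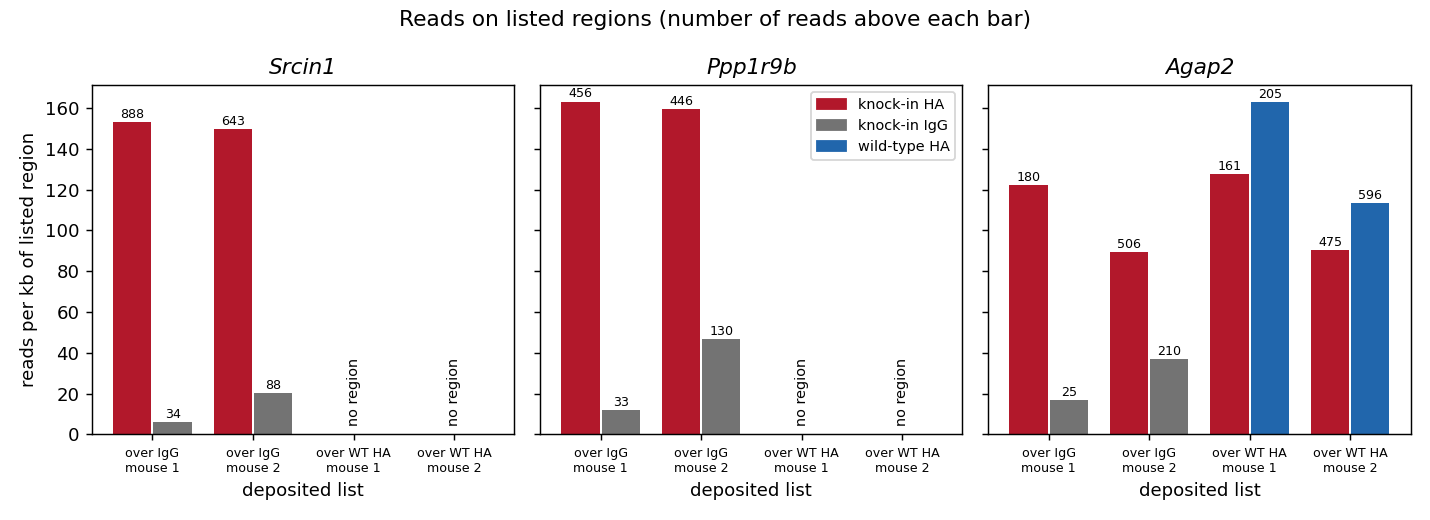
Reads per kb of listed region on Srcin1, Ppp1r9b and Agap2 in each deposited list; red bars are knock-in HA, grey bars knock-in IgG and blue bars wild-type HA, with the number of reads above each bar. HA bars stand at 153 and 150 reads per kb on Srcin1 over IgG, and the blue wild-type bars of Agap2 (163 and 114) stand above the red HA bars beside them (128 and 90.5).

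Against all genes with at least 20 reads, 2 of the 3 genes (Srcin1 and Ppp1r9b) reached 4-fold over IgG in mouse 1, where 3.19% of 1097 genes did. In mouse 2 this was Srcin1 alone, where 3.89% of 719 genes did, and in both mice together it was Srcin1 alone, where 4.85% of 392 genes did. All 3 were above 2-fold in mouse 1 (9.66% of genes), in mouse 2 (8.76%) and in both mice (6.12%). These are the values from which the genes were proposed, so nothing can be read from the counts. Ppp1r9b lay on both sides of 4-fold, with 4.77-fold in mouse 1 and 3.62-fold in mouse 2.

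**Figure D2:**
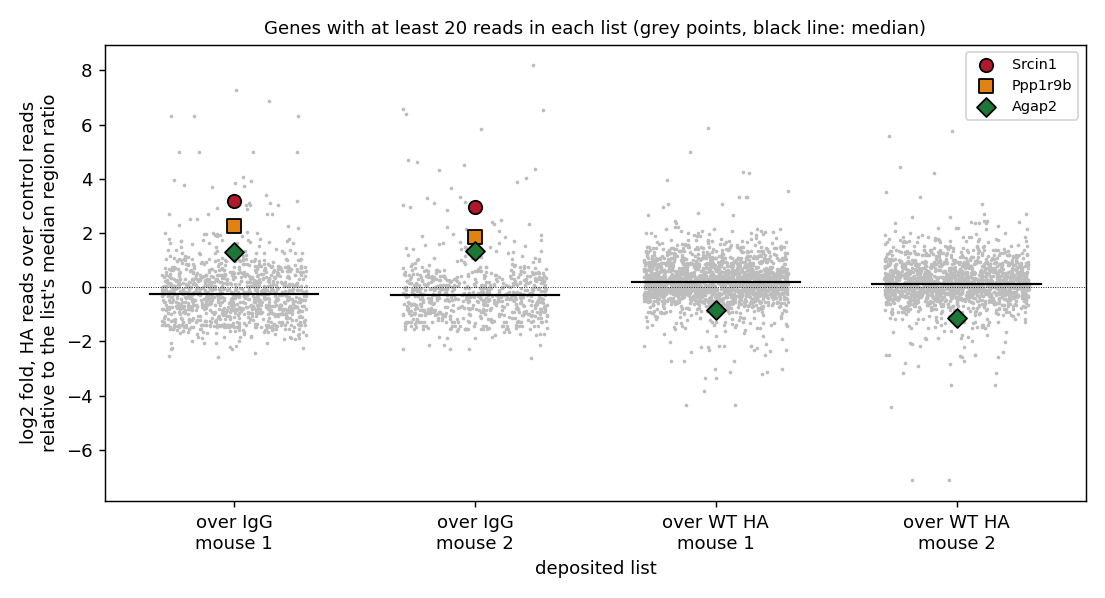
Log2 fold of HA over control reads, relative to the median region ratio of each list, for every gene with at least 20 reads (grey points, spread sideways for legibility; the black line is the median) in the 4 lists. Srcin1 (red circle), Ppp1r9b (orange square) and Agap2 (green diamond) lie above the median line over IgG in both mice, and Agap2 lies below it in both comparisons with wild-type HA.

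The comparison with anti-HA in wild-type hippocampus sets the same antibody without the knock-in allele beside it, and it could be made for Agap2 only. Against wild-type HA, 161 knock-in HA and 205 wild-type HA reads were listed for mouse 1 on 2 regions, and 475 knock-in HA and 596 wild-type HA reads for mouse 2 on 4 regions. On these regions the wild-type library therefore held more Agap2 reads than the knock-in library beside it. Summed over all listed regions it also held more, with pooled knock-in to wild-type ratios of 0.851 and 0.922, while the median region ratios were 1.41 and 1.75. The folds of Agap2 were 0.556 (0.450 to 0.687) and 0.455 (0.403 to 0.515), a mean of 0.503-fold (log2 -0.99 ± 0.20, SD over the 2 knock-in libraries, which share 1 wild-type library). Agap2 ranked 1831st of 1942 and 1609th of 1677 genes, and it was below 1-fold in both, where 27.1% of 1194 genes were (36.9% for mouse 1 and 38.8% for mouse 2 alone). Relative to the median region, Agap2 was thus above 1-fold over IgG and below it over wild-type HA. Relative to the pooled ratio of each list, its mean log2 fold was 0.58 over IgG and -0.16 over wild-type HA, closer to 0 in both.

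All 3 antibody and genotype combinations could be read at 4 stretches of Agap2 that were listed with identical coordinates over both controls. In mouse 1 the last exon (chr10:127091581-127092210) held 81 knock-in HA, 98 wild-type HA and 12 IgG reads. In mouse 2 the first exon (chr10:127078981-127080870) held 185 knock-in HA, 241 wild-type HA and 74 IgG reads. Wild-type HA had the most reads and IgG the fewest at both. The same order held in mouse 2 at exons 8 to 10 (chr10:127086961-127087590), with 48 knock-in HA, 52 wild-type HA and 23 IgG reads, and at exons 15 to 19 (chr10:127090531-127093050), with 221 knock-in HA, 275 wild-type HA and 87 IgG reads. Before scaling, knock-in HA over wild-type HA was 0.768 to 0.923 at these 4 stretches, while the median over all stretches listed with both controls and holding at least 20 reads was 1.55 in mouse 1 (778 stretches) and 1.83 in mouse 2 (644). Wild-type HA over IgG was 8.17 in mouse 1 and 2.26 to 3.26 in mouse 2, against medians of 1.75 and 0.452.

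Srcin1 and Ppp1r9b had no region over wild-type HA, and neither had any other gene on chromosome 11. That chromosome carried 60 and 52 regions over IgG in mice 1 and 2, and 0 in both lists over wild-type HA. How Srcin1 and Ppp1r9b compare with wild-type hippocampus was therefore not tested, and their missing regions are no sign of equal or lower reads there. Chromosome 10, with Agap2, carried 10 and 20 regions over IgG and 10 and 22 over wild-type HA.

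The regions listed on chromosomes 10 and 11 held more reads than those on the chromosomes with many regions, though not the most of all chromosomes with few. On chromosome 11 no region over IgG had fewer than 29 HA reads in mouse 1 or 30 in mouse 2, and the median ratio of HA to IgG reads over its regions was 21.9 and 8.06. On chromosome 10 the lowest were 37 and 20 HA reads and the median ratios 22.0 and 2.75. The median region had 82 HA reads on chromosome 10 and 74.5 on chromosome 11 in mouse 1, against 145 on chromosome 19 and 95.5 on chromosome 2. On the chromosomes with 500 or more regions the lowest was 2 HA reads, and median ratios were 1.5 to 2.00 in mouse 1 and 0.935 to 1.00 in mouse 2. Set against the median of the other regions on its own chromosome, Srcin1 stood at 1.19 and 0.886 in mice 1 and 2. Ppp1r9b stood at 0.622 and 0.415, and Agap2 at 0.215 and 0.511. Sptbn1 held 31 regions in each mouse, of 49 and 45 other regions for Srcin1 and of 55 and 48 for Ppp1r9b. Nhsl1 held 6 regions in each mouse, of 8 and 15 other regions for Agap2. This scale counts regions, so it is weighted towards genes with many of them. On that scale none of the 3 stood above the median of the other regions in both mice. A gene's fold and the way regions were listed on its chromosome cannot be told apart in these lists.

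**Figure D3:**
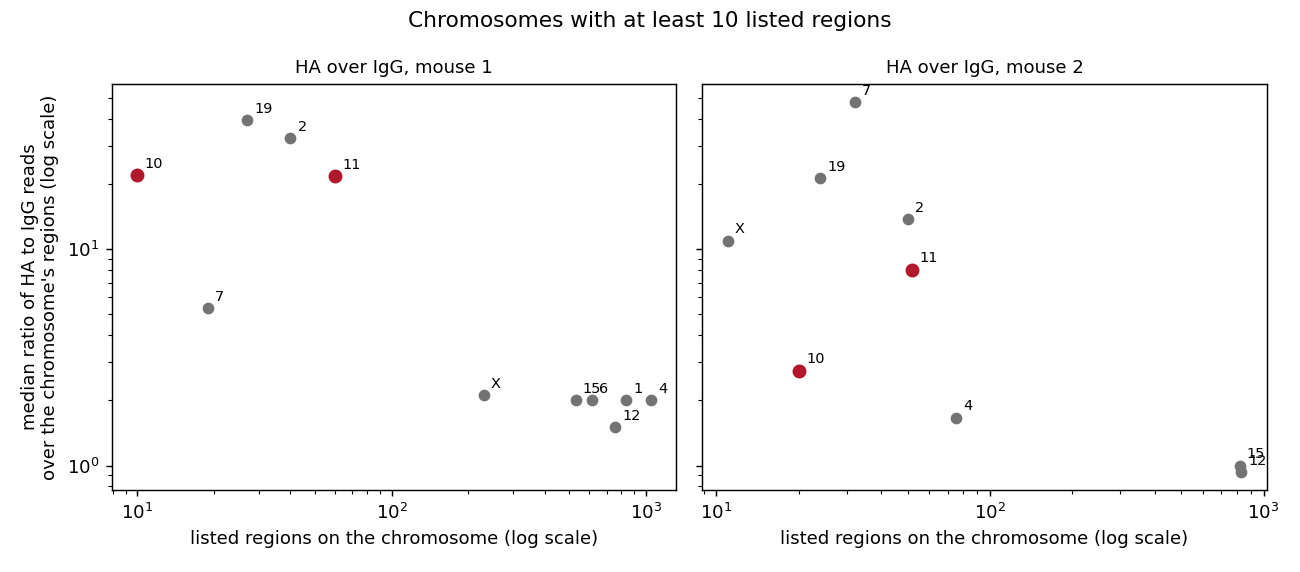
Number of listed regions (x axis, log scale) and median ratio of HA to IgG reads over those regions (y axis, log scale) for each chromosome with at least 10 regions, in mice 1 and 2; labels are chromosome names and red points are chromosomes 10 and 11. Chromosome 11 lies at 60 and 52 regions with ratios of 21.9 and 8.06, while the chromosomes with over 500 regions lie at ratios of 2.00 or less.

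Few genes of chromosomes 10 and 11 were listed, so the neighbours can be named. On chromosome 11 in mouse 1, Srcin1 was number 2 of 8 genes with an HA to IgG ratio of 26.1, next to Mprip (25.2), a scaffold of myosin phosphatase, and Sptbn1 (23.8), a spectrin chain. Ppp1r9b was number 7 at 13.8, above Vamp2 (4.45), a synaptic vesicle protein. In mouse 2, Sptbn1 was at 9.62, Mprip at 7.70 and Srcin1, number 6 of 9, at 7.31, and Ppp1r9b was number 9 at 3.43. On chromosome 10 in mouse 1, Agap2 (7.20) lay between Nhsl1 (446) and Wasf1 (5.75), a WAVE complex subunit, and in mouse 2 it was number 3 of 7 at 2.41. Over wild-type HA, Wasf1 was at 4.6 and 3.96 and Agap2 at 0.785 and 0.797, so the 2 genes stood near each other over IgG and apart over wild-type HA.

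Along the genes, all 18 member regions of mouse 1 and all 16 of mouse 2 over IgG touched an exon, as did all 6 over wild-type HA. Of the regions on other genes, 87.2% and 87.5% did over IgG, and all 50 and 55 on other genes of chromosomes 10 and 11. By length, 86.0% and 84.0% of the member regions over IgG was exon, against 34.4% and 30.4% for all other genes and 79.1% and 83.0% for other genes on chromosomes 10 and 11. Exons make up 10.6% of Srcin1, 28.4% of Ppp1r9b and 31.5% of Agap2. The regions of the 3 genes thus lay mostly on exons, as did those of the other genes on these chromosomes.

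On Srcin1 (20 exons, 7054 bases of mRNA) the regions covered 65.9% of the mRNA in mouse 1 and 50.4% in mouse 2, touching 11 and 7 exons. Exon 8, wholly coding, carried the most HA reads of any region, with 223 HA and 5 IgG reads in mouse 1 (chr11:97534321-97535395) and 157 HA and 25 IgG reads in mouse 2 (chr11:97534536-97535395). The far end of exon 20, in the 3′ UTR, carried 142 HA and 8 IgG reads in mouse 1 and 152 HA and 22 IgG reads in mouse 2 (chr11:97509381-97510455). Exon 2 carried the region nearest to the 5′ end, with 33 HA and 2 IgG reads in mouse 1 and 40 HA and 4 IgG reads in mouse 2 (chr11:97551736-97551950). HA reads per kb were 126 to 207 over the regions of mouse 1 and 122 to 186 over those of mouse 2. Exons that were touched had a median of 176 and 247 bases in mice 1 and 2, against 99 and 147 bases for the others. Exons 12, 13, 14 and 19 were touched in mouse 1 and not in mouse 2.

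On Ppp1r9b (10 exons, 4508 bases) the regions covered 54.8% and 57.7% of the mRNA. Exon 1, with 1371 of the 2451 coding bases, carried 260 HA and 19 IgG reads in mouse 1 and 265 HA and 84 IgG reads in mouse 2 at the same coordinates (chr11:94991516-94993020). In each mouse this was more HA reads than on the other regions of the gene together. Exon 6 carried 39 HA and 2 IgG reads in mouse 1, and 31 HA and 12 IgG reads in mouse 2 (chr11:95001836-95002050). In exon 10, mouse 1 had 1 region with 86 HA and 9 IgG reads, in the 3′ UTR, and mouse 2 had 2 regions with 69 and 81 HA and 19 and 15 IgG reads. Exons 2 and 5 had a region in mouse 1 only, of 37 HA and 0 IgG reads and of 34 HA and 3 IgG reads.

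On Agap2 (19 exons, 5633 bases) the regions over IgG covered 26.1% of the mRNA in mouse 1 and 81.2% in mouse 2, on 2 and 12 exons. In mouse 1 they lay on the first exon, with 99 HA and 13 IgG reads (chr10:127079821-127080660), and on the last, with 81 HA and 12 IgG reads. In mouse 2 the 2 outer regions held 185 HA and 74 IgG reads and 221 HA and 87 IgG reads, and 3 smaller regions between them held 20 to 48 HA and 10 to 23 IgG reads. The HA to IgG ratio was 2.00 to 2.54 over all 5, with no stretch of the mRNA apart from the rest. Over wild-type HA the ratio was 0.748 and 0.827 on the 2 regions of mouse 1 and 0.750 to 0.923 on the 4 of mouse 2, below 1 on each.

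**Figure D4:**
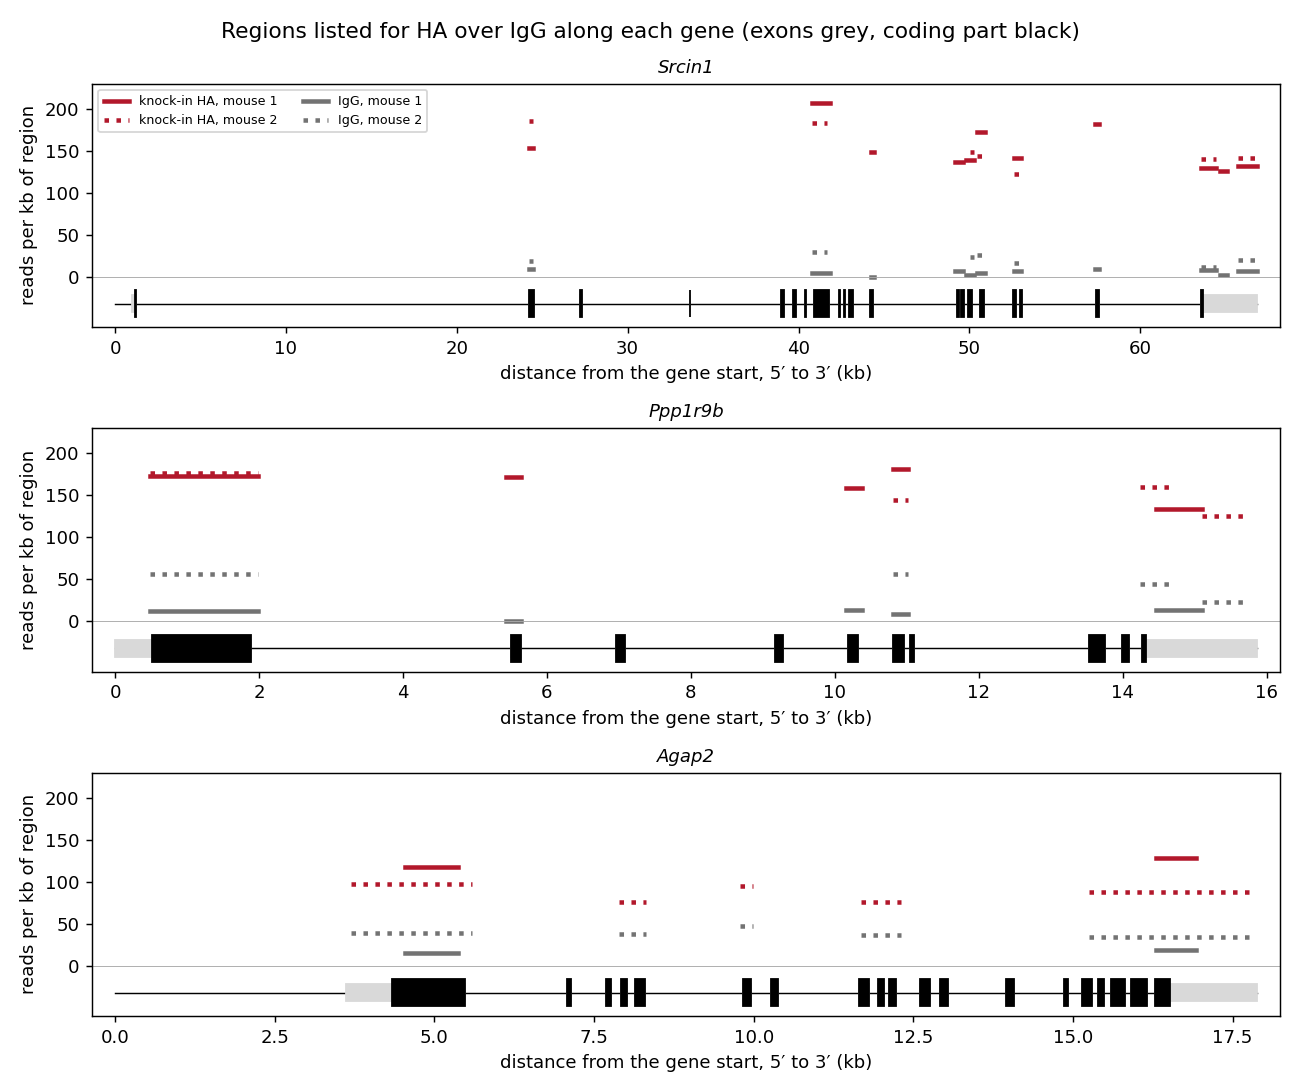
Regions listed over IgG along Srcin1, Ppp1r9b and Agap2 (x axis, distance from the gene start in kb; y axis, reads per kb of region): red lines are knock-in HA and grey lines IgG, solid for mouse 1 and dotted for mouse 2, above the exons of the transcript (grey, coding part black). Red lines lie over exons and above the grey lines at every region, and Agap2 has 2 regions in mouse 1 and 5 in mouse 2.

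The mice shared most regions of Srcin1 and fewer of Agap2. Of the Srcin1 regions, 7 of 11 in mouse 1 and 7 of 7 in mouse 2 overlapped one of the other mouse, and 4 had identical coordinates. For Ppp1r9b this was 3 of 5 and 3 of 4, with 2 identical, and for Agap2 it was 2 of 2 and 2 of 5, with none identical. On the 4 identical Srcin1 regions, HA reads were 360 in mouse 1 and 375 in mouse 2, and IgG reads were 19 and 47. On the 2 identical Ppp1r9b regions, HA reads were 299 and 296, and IgG reads were 21 and 96. HA reads in mouse 2 were thus 1.04 and 0.990 times those in mouse 1, while IgG reads were 2.47 and 4.57 times as many. Over other regions identical in both mice (66 with IgG reads in mouse 1), the median was 0.965 for HA and 2.55 for IgG reads. The mouse-to-mouse difference in the ratios of Srcin1 and Ppp1r9b lay in the IgG reads.

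The authors' own statistics varied between lists for the same gene. In the authors' deposited table the adjusted p-value was below 0.05 for 11 of 11 and 7 of 7 Srcin1 regions over IgG in mice 1 and 2. For Ppp1r9b the authors' deposited table has 5 of 5 and 3 of 4 below that limit, and for Agap2 2 of 2 and 4 of 5. For Agap2 over wild-type HA the authors' deposited table has 2 of 2 and 4 of 4 regions below 0.05, although wild-type reads outnumbered knock-in reads on each of them. The authors' lists also give a value named eFDR. Over IgG in mice 1 and 2 it was 0.0357 to 0.25 and 0.0571 to 0.5 for Srcin1 regions. It was 0.0333 to 0.105 and 0.0444 to 0.491 for Ppp1r9b, and 0.111 to 0.125 and 0.0556 to 0.727 for Agap2. Over wild-type HA it was at most 4.13e-263 for Agap2. The sources used here do not say how the p-value and the eFDR were made, and they are used for nothing else.

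The exonic sequence under the median region held 60.3% and 61.4% G and C for Srcin1, 57.4% and 56.6% for Ppp1r9b and 68.0% and 62.4% for Agap2 over IgG in mice 1 and 2. The median region on other genes had 51.0% and 51.3%, and on other genes of chromosomes 10 and 11 it had 52.0% and 52.3%. Over wild-type HA, the median Agap2 region had 66.7% and 63.4%, against 51.5% and 50.9% on other genes. Within Srcin1 the regions of mouse 1 spanned 55.5% to 70.6%, and within Ppp1r9b 54.1% to 69.5%. TGGA occurred 12.1 and 9.22 times per kb of exonic region in Ppp1r9b and AGGA 11.7 and 10.8 times, against 6.08 and 6.30 times for TGGA and 6.46 and 6.55 times for AGGA on other genes. Other genes of chromosomes 10 and 11 had 7.42 and 7.77 for TGGA and 7.56 and 9.49 for AGGA. AGGA was less frequent in Srcin1, at 5.81 and 5.35 times per kb, and in Agap2, at 2.04 and 4.81. For Srcin1, TGGA occurred 7.96 and 7.60 times per kb and ACTG 2.58 and 3.10 times, where other genes had 5.01 and 4.98 for ACTG. Ppp1r9b too was below other genes for ACTG, at 1.62 and 2.31 times per kb. Its ACTT occurred 2.43 and 3.46 times per kb, against 4.26 and 4.11 on other genes and 3.32 and 2.75 on other genes of chromosomes 10 and 11. These are descriptions of 3 mRNAs without a test, and the part of base composition in the reads was not tested.

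The genes with folds most like each member were found by Euclidean distance in log2 fold, over the lists in which the member had at least 20 reads. For Srcin1, over the 2 IgG lists and 391 genes, they were Mprip at a distance of 0.09, Sptbn1 at 0.42 and Dcaf10 at 0.97. Mprip had 8.72-fold and 8.14-fold in mice 1 and 2, and Sptbn1 8.23-fold and 10.2-fold, beside 9.02-fold and 7.72-fold for Srcin1. For Ppp1r9b they were D430019H16Rik at 0.51, Macf1, a cytolinker of actin and microtubules, at 0.90 and Shank2, a postsynaptic scaffold, at 1.05. For Agap2, over all 4 lists and 328 genes, they were Cep170b at 0.96, Ldoc1l at 1.03 and D430019H16Rik at 1.09. Cep170b, a centrosomal protein, had 1.38-fold and 1.94-fold over IgG, as well as 0.493-fold and 0.491-fold relative to wild-type HA. These lists share HA libraries, so likeness over them is a description.

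A list of 54 genes that act with the 3 scaffolds was looked up in 5 roles. Regions were listed for 20 of the 54 in any list. All 20 lie on the 7 chromosomes that have at least 100 regions in some list, and of the 34 that lie elsewhere none had a region. Which partners could be measured thus followed the chromosome. Over IgG, limma tested 7 of the 54 among 392 genes that had 20 or more reads in each mouse, of which 6.63% were called higher and 18.6% lower at a Benjamini-Hochberg adjusted p below 0.05. The 392 include Srcin1, Ppp1r9b and Agap2, whose own limma results are not given. Genes on a shared region repeat its reads and are each counted, such as Mir127, Mir136 and Rtl1 (each log2 -1.38 and called lower). These shares are therefore not shares of independent measurements. None of the 7 was called higher and none lower, and 1 (Begain) had an unadjusted p below 0.05. Their median log2 fold was -0.51, against -0.38 over all 392 genes. Over wild-type HA, 14 and 17 of the 54 had at least 20 reads for mice 1 and 2. None of the partners reached 4-fold in both mice, where 0.67% of 1194 genes did, and none was at or under 0.25-fold in both, where 1.17% did. With so few partners and such low shares, nothing can be read from these counts.

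Of the Src kinase partners, 2 of 10 were listed, and both only over wild-type HA. Cttn (cortactin), an actin-binding substrate of Src, had 57 knock-in HA and 55 wild-type HA reads for mouse 1, at 0.734-fold (0.498 to 1.08). Syp (synaptophysin), a synaptic vesicle protein that binds p140Cap, had 79 and 52 reads for mouse 2, at 0.868-fold (0.604 to 1.26). Src, Fyn and Csk, the kinases themselves, had no region. Of the spinophilin partners, 3 of 9 were listed. Ppp1r9a (neurabin), the paralog of Ppp1r9b, had 11 knock-in HA and 45 wild-type HA reads, at 0.140-fold (0.0652 to 0.274), in the mouse 2 list alone. Rgs4, a regulator of G-protein signalling that binds spinophilin, had 22 HA and 7 IgG reads in mouse 1, at 1.09-fold (0.448 to 3.01). Dcx (doublecortin), a microtubule-associated protein, had 4 knock-in HA and 1 wild-type HA reads. The 3 catalytic subunits of protein phosphatase 1 had no region.

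Of the Arf GTPase regulators and PIKE partners, 7 of 16 were listed. Agap1, the paralog of Agap2, had 63 HA and 12 IgG reads in mouse 1, at 1.81-fold (0.969 to 3.70), and over wild-type HA it was at 0.763-fold (0.535 to 1.09) and 0.768-fold (0.553 to 1.07). Iqsec2, an exchange factor for Arf GTPases, had 196 HA and 37 IgG reads in mouse 1, at 1.83-fold (1.28 to 2.68), and 215 knock-in HA and 180 wild-type HA reads in mouse 2, at 0.683-fold (0.557 to 0.837). Its relative Iqsec1 was at 1.30-fold over IgG in mouse 1 and at 0.665-fold and 0.681-fold over wild-type HA. Of the genes in this role with at least 20 reads, 3 were above and 3 below 1-fold over IgG in mouse 1, and 0 above and 3 below in mouse 2. Of all genes with at least 20 reads, 60.7% and 64.8% were below 1-fold over IgG in mice 1 and 2. Over wild-type HA, 2 genes of this role were above and 3 below 1-fold for mouse 1, and 2 above and 5 below for mouse 2, where 36.9% and 38.8% of all genes were below. Akt1, the kinase that PIKE stimulates, was at 0.555-fold and 0.894-fold over IgG (log2 -0.51, SE 0.26, limma adjusted p = 0.230). Relative to wild-type HA it was at 1.27-fold and 0.730-fold.

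Of the spine GTPase regulators, 5 of 14 were listed. Trio, an exchange factor that activates Rac, had 82 HA and 9 IgG reads in mouse 1, at 3.15-fold (1.58 to 7.13), and 215 HA and 213 IgG reads in mouse 2, at 1.07-fold (0.878 to 1.29). These 2 intervals did not overlap, and the log2 fold of 0.84 (SE 0.46) had an adjusted p of 0.254 in limma. Sipa1l1 (SPAR), a Rap GTPase-activating protein of spines, was at 1.06-fold and 0.924-fold over IgG (log2 -0.02, SE 0.17, limma adjusted p = 0.941). Relative to wild-type HA it was lower, at 0.338-fold (0.259 to 0.440) and 0.360-fold (0.271 to 0.475). Srgap3, which acts on Rac, had 4 HA and 0 IgG reads in mouse 1 and stood at 1.18-fold and 0.812-fold over wild-type HA. Sipa1l3 was at 0.581-fold (0.442 to 0.763) over wild-type HA for mouse 1.

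Of the other spine scaffolds, 3 of 5 were listed. Cnksr2, a scaffold of Ras signalling, had 189 HA and 80 IgG reads in mouse 1, at 0.816-fold (0.625 to 1.07), and 0.555-fold over wild-type HA in mouse 2. Akap5, which anchors protein kinase A, was at 0.622-fold and 1.31-fold over IgG (log2 -0.16, SE 0.35, limma adjusted p = 0.748). Begain, a PSD-95 partner, was at 0.691-fold and 0.651-fold over IgG (log2 -0.59, SE 0.17, limma adjusted p = 0.0919). The partners with at least 20 reads had a median fold of 0.967 (13 genes) and 0.894 (7 genes) over IgG in mice 1 and 2, beside 0.839 and 0.822 for all genes, and of 1.015 (14 genes) and 0.846 (17 genes) over wild-type HA, beside 1.15 and 1.10. None of them reached 4-fold in any of the 4 lists. Of all genes, 3.19% and 3.89% did over IgG in mice 1 and 2, and 1.75% and 1.67% over wild-type HA. At these shares the partners were too few for their absence to be read as a result.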

How the data were processed

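RNA precipitated from hippocampi with anti-HA or control IgG was sequenced on an Illumina HiSeq for 50 cycles, single-end, per the labels' protocols. TopHat and TopHat2 and the builds GRCm38 and mm10 are named in the submitters' processing notes, and rtracklayer 1.28.9 wrote the lists, as their headers state. The region caller, and whether reads were assigned by strand, are not given in the sources used here. The deposited lists hold other values for each region, per the file headers: the read count of the HA and of the control library, a score, and p-values and an eFDR made by the authors.

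A region was counted for a gene when the list placed it inside or overlapping the gene. Reads were summed per gene and list with Python 3.11.15, and ratios were divided by the list's median region ratio. Where a control had 0 reads, 3 were used in the ratio, per gene and list, and also per region in the list medians and the chromosome medians. Counting intervals are exact. Transcript models and exonic sequence came from GENCODE M21. Intron sequence was not used here, so composition and motifs cover exonic bases, where density per kb of whole region had been planned.

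Partner genes were tested with limma 3.58.1 in R 4.3.3 on log2 ratios per mouse with 0.5 reads added, adjusted over all genes that had 20 or more reads in each mouse. HA and IgG libraries were paired by mouse, as the labels number the mouse of each. Over 80 regions identical in both mice, the log2 differences between mice in HA and in IgG reads were correlated at r = -0.04. Labels do not say more on the mice, and p-values measure the spread between these samples. Alternatives were other scales, read minimums, the pseudocount, single mice, the fit without mouse, and, chosen after the values were seen, chromosome medians and identical regions. The script was tested on simulated data. Some marker results are not reported here. The genes and lists were chosen with earlier results of these data known. Named partners are up to 4 per role with the most HA reads, and up to 3 genes most like each member.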

Additional observations from a re-analysis of the deposited data

How the results depend on the processing

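The sizes of the folds over IgG of Srcin1, Ppp1r9b and Agap2 changed with the scale. With the pooled ratio of all regions as scale, the mean log2 folds were 2.31, 1.30 and 0.58, with the median over regions of at least 50 reads 2.63, 1.62 and 0.90, and without scaling 3.79, 2.78 and 2.06. Against the other regions of the chromosome they were 0.0362, -0.98 and -1.59, so Ppp1r9b and Agap2 reversed. In mouse 2, Ppp1r9b (-1.27) lay below Agap2 (-0.97). Of those other regions, 31 lay on Sptbn1 on chromosome 11 and 6 on Nhsl1 on chromosome 10 in each mouse. The cause of the reversal was not tested. The region with the most HA reads alone gave 3.34 for Srcin1 and 1.41 for Agap2, and regions identical in both mice gave 2.89 for Srcin1 and none for Agap2. Agap2 over wild-type HA was -0.16 with the pooled ratio, -0.34 without scaling and -3.83 against its chromosome. Leaving out a mouse gave 2.95 to 3.17 for Srcin1, 1.86 to 2.26 for Ppp1r9b, 1.31 to 1.35 for Agap2 over IgG and -1.13 to -0.85 over wild-type HA. The pooled ratio shifts all genes by -0.42 and -1.09 (log2) over IgG in mice 1 and 2 and, in the comparison with wild-type HA, by 0.73 and 0.93, and the median over regions of at least 50 reads by -0.57 and -0.30 over IgG. Overlap of member regions was the same when 50% of the shorter region was asked for.

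In limma, 1 of 3 partners (Trio) was called higher when genes needed 50 reads, where 38 of all 180 genes were, 6 of 7 lower with the pooled ratio and 2 lower with the median over regions of at least 50 reads. Leaving out a mouse leaves no spread for a test, and the partner median was then -0.64 to -0.16. Without the pairing of HA and IgG by mouse, 0 partners were called higher and 0 lower, and over all genes 21 were higher and 15 lower, against 26 and 73 with it. Of all genes, 276 were lower with the pooled ratio, 124 and 162 with medians over regions of at least 10 and 50 reads, 46 with genes of at least 10 reads and 42 with 1 read added. Genes on a shared region are each counted in these numbers too. With no minimum on reads, limma called 0 higher and 0 lower, and 75 and 121 had an unadjusted p below 0.05. The median region held 5 or 6 HA reads, which limits the precision of its ratio.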
